A study of Homo sapiens with 9 samples.

Results

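The data are the 6 RNA-seq libraries in which the stronger of the study's DDX41 hairpins, shDDX41 #1, was set against the control hairpin, sh-Control. They were chosen by their labels from the 9 libraries of the series, 3 per group. Both groups are MOLM13 cells, a human acute myeloid leukemia line with monocytic features that carries a FLT3 internal tandem duplication and a KMT2A fusion. The cells were transduced with lentivirus that expresses a short hairpin and GFP from the pLKO vector, and were sorted on day 4 after transduction. The remaining 3 libraries carry another hairpin against the same gene, shDDX41 #2, which lowered DDX41 less and is used here only to show where the #1 values differ from it. The libraries of each group are named A, B and D. A hairpin acts on a whole pool of infected cells, so no group is a clone, and no non-transduced cells or rescue of DDX41 were analysed here. A batch was not given in the labels.

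DDX41 is a DEAD-box ATPase that works on RNA in the nucleus, where it is a component of the late spliceosome, and in the cytosol, where it takes part in sensing of nucleic acids. Germline and somatic DDX41 mutations occur in myeloid malignancy. A short hairpin RNA is cut by the cell into a small duplex, and 1 strand of it guides a silencing complex to the matching mRNA. The first bases of that strand can also pair with short stretches in the 3′ untranslated regions (3′ UTRs) of other mRNAs.

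DDX41 fell in every shDDX41 #1 library. Its level was 117, 115 and 113 CPM (read counts scaled to library size) in sh-Control A, B and D, and 12.2, 12.9 and 9.95 CPM with shDDX41 #1. The groups did not overlap, and the mean was 89.8% lower. The log2 fold change was -3.29 ± 0.0881 (SE, n = 3 per group), with an adjusted p of 4.10e-12 by edgeR's quasi-likelihood test. An exact two-sided permutation test of the 6 values gave p = 0.1, the smallest that 3 against 3 libraries can give. With shDDX41 #2 the level was 38.9, 39.9 and 42.5 CPM, between the other groups.

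The libraries held 16385238 to 18945768 counts. Of 12712 genes tested, 6078 (47.8%) were called at an adjusted p under 0.05, with 3010 higher (23.7%) and 3068 lower (24.1%) with shDDX41 #1. These shares are the background for every count below. A 2-fold change or more was seen in 458 rising and 396 falling genes. The median log2 fold change over all genes tested was 0.01. Scaling by upper quartiles in place of TMM moved that median to 0.09 and the share of calls that were higher from 49.5% to 61.1%. Against shDDX41 #2, 6204 genes (48.8%) differed. Within each group, log2 CPM correlated across genes at r of 0.990 to 0.994. Library D of shDDX41 #1 stood apart from A and B, with 15 genes over 2-fold away, among them higher RN7SL1, RN7SL2, RN7SK, RPPH1 and MALAT1. Since nothing states separate cultures for each library in the labels, the p-values measure the spread between these libraries.

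Both groups carried markers of myeloid leukemia cells. Of 10 such markers all were tested, 4 rose and 0 fell: FLT3, CD33, CD4 and CSF2RA, by log2 fold changes of 0.20 to 0.28. Their summed level was 2466 to 2519 CPM in sh-Control and 2558 to 2585 CPM with shDDX41 #1. Markers of erythroid cells summed to at most 0.425 CPM, of megakaryocytes to 0.789 CPM, of fibroblasts to 0.745 CPM and of B cells to 1.32 CPM in any of the 6 libraries. HBB, HBA1, HBA2, HBG1, ALAS2, EPB42, PF4, PPBP, COL1A2, DCN, MS4A1 and PAX5 were at 0 in all 6. Of the T and NK cell markers, CD3E, CD3G, CD2 and KLRD1 were at 0 in all 6, while the 2 tested, CD3D and NKG7, fell by log2 values of 1.25 and 0.57. The T and NK sum was 20.6 to 23.8 CPM in sh-Control and 12.5 to 17.6 CPM with shDDX41 #1, nearly all of it NKG7. The epithelial list summed to 14.7 to 19.4 CPM and 16.5 to 17.8 CPM, mostly KRT18, and CDH1, KRT5 and KRT19 were at 0. In bulk samples, fewer cells of a type and less RNA per cell cannot be told apart.

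Single macrophage, coagulation and interferon-inducible genes, and several signaling genes, were among the largest rises. The macrophage and interferon lists as a whole did not rise, as given below. Outside fixed lists of cell cycle, ribosome, snoRNA and sterol genes, which do not hold every gene of these kinds, and among genes over 20 CPM, MPEG1 rose most. MPEG1 encodes perforin-2, a pore-forming protein of macrophages. Its level was 7.88, 8.83 and 9.27 CPM in sh-Control against 34.1, 31.7 and 29.97 CPM with shDDX41 #1, a log2 fold change of 1.88 ± 0.101 (adjusted p = 4.37e-09, edgeR). Every knockdown library was above every control, and the shDDX41 #2 libraries, at 28.7 to 33.5 CPM, overlapped those of shDDX41 #1.

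F13A1, the catalytic subunit of coagulation factor XIII, rose by 1.65 on the log2 scale, from 11.2, 11.8 and 11.3 CPM to 36.5, 33.6 and 37.4 CPM. TRIM22, an interferon-inducible ubiquitin ligase, went from 29.6, 36.8 and 40.8 CPM to 96.0, 89.5 and 119 CPM, and GGT5, which trims leukotriene C4 and other glutathione conjugates, rose by 1.47 on the log2 scale. None of these groups overlapped. GGT5 with shDDX41 #1 (18.9 to 23.5 CPM) overlapped shDDX41 #2 (17.9 to 19.8 CPM), whereas F13A1 and TRIM22 were higher than with shDDX41 #2, with adjusted p of 1.32e-06 and 1.87e-04 (edgeR).

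Other leading rises were larger with shDDX41 #1 than with shDDX41 #2. TRIB1, a pseudokinase that directs C/EBP alpha to degradation, was 70.8, 51.3 and 46.9 CPM in sh-Control and 173, 162 and 133 CPM with shDDX41 #1. Its level with shDDX41 #2, 49.9 to 58.6 CPM, lay within the control range. PHLDA3, a membrane-binding inhibitor of AKT, rose from 12.8, 13.3 and 13.6 CPM to 33.8, 33.8 and 36.9 CPM, and MDM2, a ubiquitin ligase, from 152, 155 and 147 CPM to 399.7, 369.8 and 400.3 CPM, with 202 to 217 CPM for shDDX41 #2. MYCL, a basic helix-loop-helix factor, rose by 1.36 on the log2 scale. C5orf20 and TIFAB, which lie over each other on chromosome 5 in the annotation, rose by 1.39 and 1.36. Their reads may not be separable.

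The long non-coding RNAs ZFAS1 and EPB41L4A-AS1, both hosts of small nucleolar RNAs, complete the 12 largest rises. ZFAS1 was 164, 146 and 188 CPM in sh-Control and 402, 394 and 479 CPM with shDDX41 #1, and EPB41L4A-AS1 rose by 1.34 on the log2 scale. Among genes under 2 CPM in sh-Control, 5 had the largest rises to at least 5 CPM. They were KCNQ3, a potassium channel subunit (log2 fold change 2.21), LOC102724428 (2.15), a near-identical copy of the kinase gene SIK1 whose reads may be shared with it, the NAD-synthesizing enzyme NMNAT3 (1.77), the protease CTSF (1.71) and LINC00565 (1.65). At these levels a library holds few counts for each gene, as the SE of KCNQ3, 0.219, shows.

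**Figure D1:**
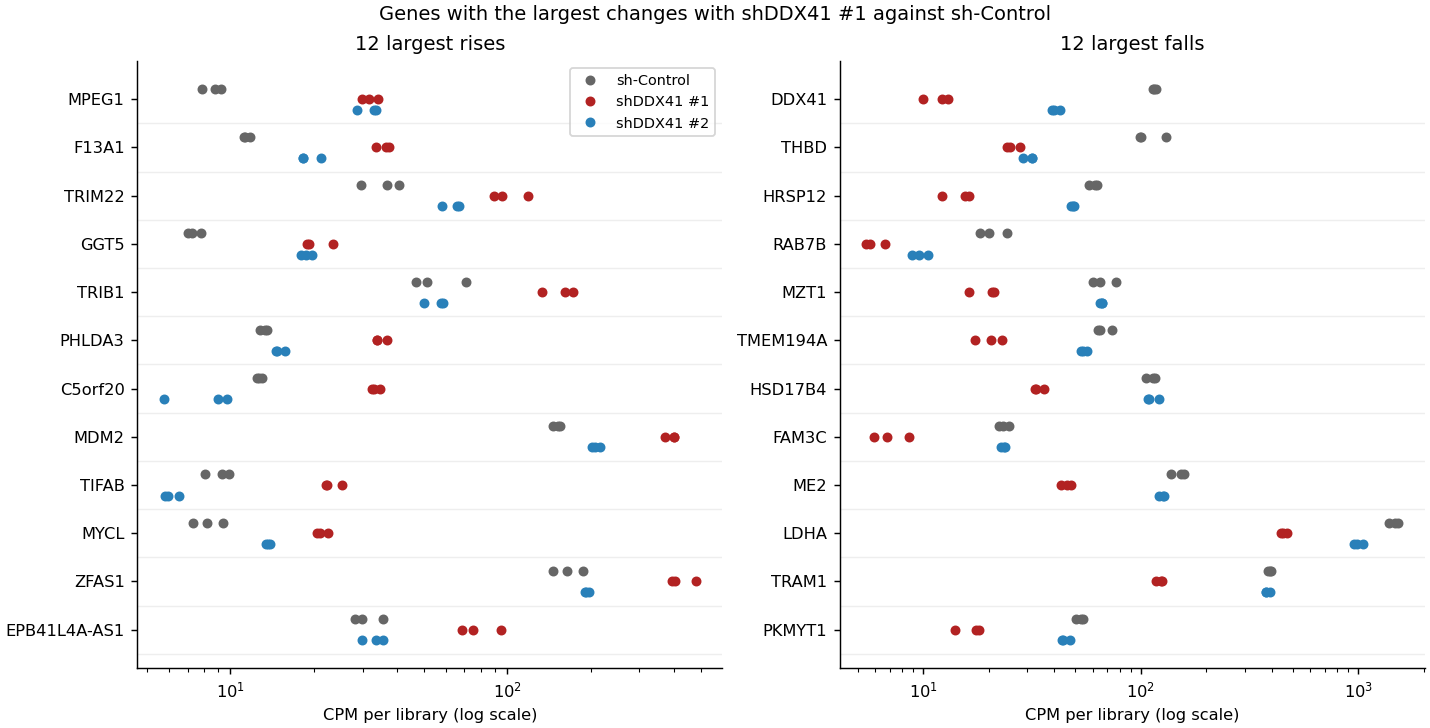
Points show the level of each of the 9 libraries (x axis, CPM on a log scale) for the 12 largest rises and the 12 largest falls over 20 CPM with shDDX41 #1 against sh-Control, outside the fixed exclusion lists, which do not hold the cell cycle kinase PKMYT1 or the snoRNA hosts ZFAS1 and EPB41L4A-AS1. The red and grey points of each gene do not overlap, as the naming rule required, while the blue shDDX41 #2 points of HSD17B4, FAM3C, TRAM1 and MZT1 lie at or near the control.

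Some of the largest falls were shared by both hairpins. THBD, thrombomodulin, an endothelial and monocyte receptor for thrombin, was 131, 100 and 99.2 CPM in sh-Control and 25.01, 27.7 and 24.3 CPM with shDDX41 #1 (log2 fold change -2.10 ± 0.104). It was also low with shDDX41 #2, at 28.8 to 31.7 CPM, and the difference between the hairpins, -0.26 on the log2 scale, had an adjusted p of 0.0583 (edgeR). RAB7B, a small GTPase of the late endosome, fell by 1.81 on the log2 scale and was also low with shDDX41 #2, at 8.86 to 10.5 CPM against 18.2 to 24.1 CPM in sh-Control.

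In contrast, HSD17B4, a peroxisomal beta-oxidation enzyme, was 106, 114 and 116 CPM in sh-Control, 32.4, 33.0 and 36.0 CPM with shDDX41 #1, and 109, 121 and 108 CPM with shDDX41 #2. MZT1, a subunit of the gamma-tubulin ring complex, was 60.5, 64.5 and 77.1 CPM, then 20.7, 16.2 and 21.1 CPM, then 65.2, 66.4 and 66.4 CPM in the same order of groups. TRAM1, which helps nascent chains enter the endoplasmic reticulum, and FAM3C, a secreted protein, showed the same order, with log2 differences from shDDX41 #2 of -1.64 and -1.72. Both differences were called (adjusted p of 1.21e-10 and 3.92e-08, edgeR).

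HRSP12, an enzyme that removes reactive imines, fell by 2.05 on the log2 scale, TMEM194A, a nuclear envelope protein also named NEMP1, by 1.73, and ME2, the mitochondrial malic enzyme, by 1.71. LDHA, lactate dehydrogenase A, was 1520.2, 1383 and 1465 CPM in sh-Control and 449.6, 468 and 439 CPM with shDDX41 #1, and PKMYT1, a kinase that holds CDK1 inactive, fell by 1.68. All were lower than with shDDX41 #2. Only 3 genes fell from at least 5 CPM to under 2 CPM: C1orf186 (-2.65), a regulator of erythroid expansion also named RHEX, the acylphosphatase ACYP1 (-2.48) and the ubiquitin ligase NEDD4 (-2.17).

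Many of these falls share a short word in the 3′ UTR. Of the 12712 genes, 11200 (88.1%) matched a protein-coding GENCODE transcript with a 3′ UTR, and each of the 12055 words of 7 bases held by at least 300 of these 3′ UTRs was ranked by the mean log2 fold change of genes with it minus that of genes without it. The lowest of all was GAACTAT, held by 905 genes (8.08%), with a mean difference of -0.21. Next were GAACTAA (-0.16) and AGAACTA (-0.16), and 8 of the 12 lowest words contained AACTA. With shDDX41 #2 against sh-Control the same word had rank 7025 and a mean difference of 0.03. The word was searched on the transcript strand only, it was found by looking at these fold changes, and no test was made.

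GAACTAT also occurs in the coding sequence of DDX41 itself. The stretches below, read from GENCODE v29 transcripts on GRCh38, are shown because they place the word, in capitals, in the targeted gene and in the 3′ UTR of named genes that fell. They lie at chr5:177512496-177512517 on the minus strand (DDX41, coding exon), chr5:119542165-119542186 on the plus strand (HSD17B4), chr13:72710139-72710160 on the minus strand (MZT1), chr11:18407718-18407739 on the plus strand (LDHA), chr12:57059003-57059024 on the minus strand (TMEM194A), chr14:75053373-75053394 on the minus strand (ACYP1) and chr15:55827536-55827557 on the minus strand (NEDD4).
DDX41: ccagaggagattgaGAACTATg
HSD17B4: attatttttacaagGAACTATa
MZT1: gtggcttacagagaGAACTATc
LDHA: ggatcttattttgtGAACTATa
TMEM194A: gttcccttacctgtGAACTATg
ACYP1: tattaatagagataGAACTATt
NEDD4: aatattatgtttgtGAACTATc

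Of the 11 largest falls other than DDX41, 6 held the word in the 3′ UTR (HRSP12, MZT1, TMEM194A, HSD17B4, LDHA and TRAM1), as did 3 of the 3 genes that fell to under 2 CPM. It was in 0 of the 10 largest rises with a 3′ UTR. THBD, RAB7B, FAM3C, ME2 and PKMYT1 did not hold it. Among all called genes, the word was in 62 of 346 that fell at least 2-fold (17.9%) and in 12 of 284 that rose at least 2-fold (4.23%). Over all genes with a 3′ UTR the share was 8.08%. The word was picked for the lowest fold changes in these same data. Its shares among falls and rises, and the medians given next for shDDX41 #1, were partly set by that choice. Of the 62, 59 (95.2%) were also lower than with shDDX41 #2, and of the 284 falls of that size without it, 232 (81.7%) were.

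The median log2 fold change was -0.20 for the 94 genes with 2 or more copies, -0.16 for the 811 with 1 copy, -0.11 for the 698 with a copy in the coding sequence only and 0.01 for the 9597 with none. The same 4 classes had medians of 0.00, 0.00, 0.00 and -0.02 with shDDX41 #2. Genes with the word had longer 3′ UTRs (median 3068 against 969 bases) with less G and C (37.4% against 43.4%). In the shortest quartile of 3′ UTRs, of up to 427 bases, the median was -0.46 in 28 genes with the word and 0.00 in 2775 without. In the longest quartile it was -0.13 in 563 genes and 0.01 in 2236. In the quartile poorest in G and C the medians were -0.30 and -0.08, and in the richest, with 40 genes holding the word, 0.17 and 0.04. The hairpin sequences were not used here, so whether the word pairs with shDDX41 #1 was not tested. Lists below are given with and without the genes that hold it where that moves a count by over 1.5 times.

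**Figure D2:**
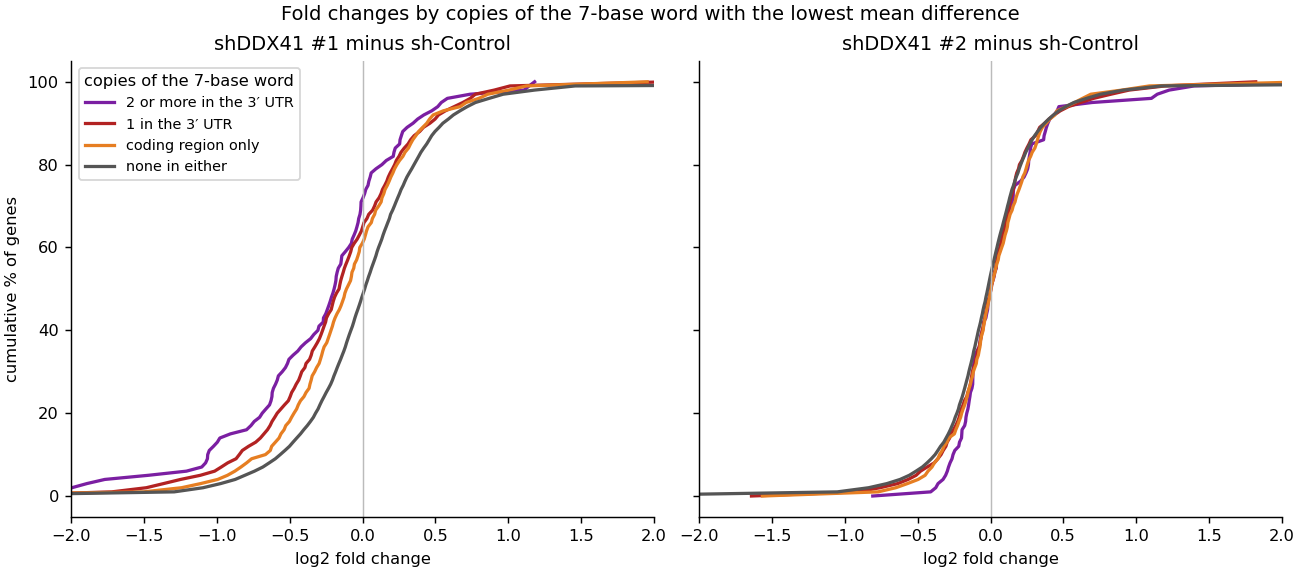
Curves give the cumulative share of genes (y axis, %) by log2 fold change (x axis) for 94 genes with 2 or more copies of the word in the 3′ UTR, 811 with 1 copy, 698 with a copy in the coding region only and 9597 with none. With shDDX41 #1 (left) the curves of genes with the word lie to the left of the grey curve, with medians of -0.20, -0.16 and -0.11 against 0.01, and with shDDX41 #2 (right) the medians are 0.00, 0.00, 0.00 and -0.02.

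Many genes of the ZNF family rose. These genes encode zinc finger proteins, most of them KRAB repressors of transposable elements, and many stand in clusters of recent copies on chromosome 19. Of 377 tested, of 520 in the table, 204 rose (54.1%, against 23.7% over all genes) and 16 fell, and the median log2 fold change was 0.40. ZNF561 was 31.0, 30.6 and 29.6 CPM in sh-Control and 63.9, 58.6 and 62.6 CPM with shDDX41 #1. ZNF296 rose by 1.29 and ZNF316 by 0.82 on the log2 scale, and the groups of all 3 did not overlap. ZNF367, a cell cycle-linked member, fell by 1.20, from 52.5 to 57.7 CPM to 20.4 to 25.6 CPM.

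The 163 ZNF genes on chromosome 19 had a median of 0.49, with 62.0% higher and 2 members lower, and the 214 elsewhere a median of 0.32, with 103 higher and 14 lower. The 726 other tested genes of chromosome 19 had a median of 0.06. Among genes of similar level, 10 to 30 CPM, the 130 ZNF genes had a median of 0.45 and the 2588 others of 0.00. Above 30 CPM the ZNF median was 0.17, with 39 of 90 higher and 12 lower. With shDDX41 #2 the ZNF median was 0.04. In the direct contrast, 186 were higher with shDDX41 #1 than with shDDX41 #2 and 26 were lower. Near-identical copies within this family can share reads, so the value of a single member is less certain than that of a unique gene.

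**Figure D3:**
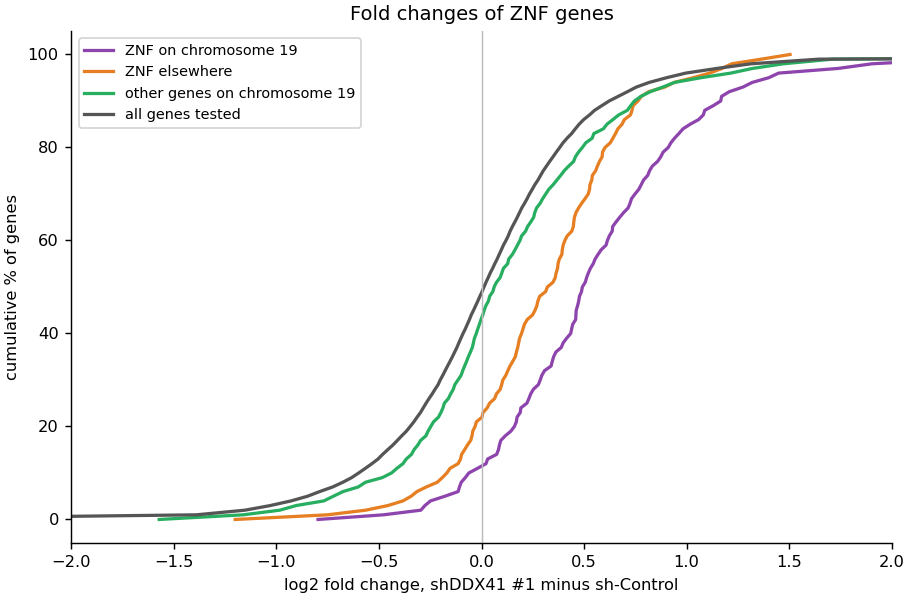
Curves give the cumulative share of genes (y axis, %) by log2 fold change of shDDX41 #1 against sh-Control (x axis) for 163 ZNF genes on chromosome 19, 214 ZNF genes elsewhere, 726 other genes on chromosome 19 and all 12712 genes tested. Both ZNF curves lie to the right of the others through the middle of the range, with medians of 0.49 and 0.32 against 0.06 and 0.01.

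Gene structure moved with the fold change as well. Genes with 1 exon had a median log2 fold change of 0.30 (228 genes, 98 higher and 25 lower), those with 2 to 4 exons 0.07, with 5 to 8 exons 0.03, with 9 to 15 exons -0.02, and those with 16 or more -0.11 (2611 genes, 398 higher and 922 lower). Without the ZNF genes these medians were 0.29, 0.05, 0.02, -0.02 and -0.11. The shortest quartile of genes by span, up to 10941 bases, had a median of 0.09 and the longest of -0.05. Span was taken for the 12184 genes with a RefSeq entry, which include 140 snoRNA genes with a median of 1.03. With shDDX41 #2 the shortest and longest span quartiles had medians of -0.04 and 0.04. Level moved with the fold change too: the lowest quartile, up to 6.18 CPM, had a median of 0.22 and the highest of -0.05. With shDDX41 #2 the medians by exon number ran from -0.03 to 0.00. These are descriptions across genes, which are not independent replicates.

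Most tested genes of MHC class II antigen presentation rose, and 0 fell. CIITA is the master activator of these genes, HLA-DRA, HLA-DRB1 and HLA-DQB1 encode peptide-binding chains, CD74 is the invariant chain, and HLA-DMA and HLA-DMB load the peptide. Of 13 members tested of 18 in the table, 8 rose (61.5%) and the median log2 fold change was 0.72. HLA-DRA was 2.94, 2.35 and 3.16 CPM in sh-Control and 10.1, 8.86 and 13.0 CPM with shDDX41 #1, a log2 fold change of 1.91 ± 0.170. CD74 was 168, 156 and 136 CPM and then 278, 231 and 276 CPM. Neither overlapped.

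CIITA, named after its values were seen, was 1.499, 1.49 and 1.42 CPM and then 2.83, 2.27 and 3.22 CPM. HLA-DRB1 rose by 1.69 from about 0.49 CPM. CIITA and the HLA genes that rose were therefore low in both groups, unlike CD74. The DNA-binding cofactors RFX5 and RFXAP did not pass the test, at 0.03 and -0.23. With shDDX41 #2 every HLA-DRA level was 10.5 CPM or more, which overlapped shDDX41 #1. Against shDDX41 #2, 1 member was higher, RFXANK, and 1 lower, HLA-DMB. The HLA genes are polymorphic and alike, so their reads can be lost or shared. Without library B of sh-Control, 5 members rose.

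Other antigen presentation and innate genes moved in both directions. Of 19 MHC class I members, 5 rose (26.3%, against 23.7% over all genes) and 3 fell. The rises included the peptide transporter TAP1 (0.34) and the immunoproteasome subunit PSMB9 (0.56). CALR, calreticulin, a chaperone of the endoplasmic reticulum, fell from 1850, 1786 and 1724 CPM to 765, 815 and 745 CPM. Of 38 innate sensing genes 8 rose (21.1%, against 23.7% over all genes) and 4 fell, IRAK1 by 0.38. Among the rises were SAMHD1, a dNTP hydrolase (1.21), the TLR4-like CD180 (0.65) and UNC93B1, which carries nucleic acid-sensing TLRs (0.42). Of 39 interferon-stimulated genes 9 were called (23.1%, against 47.8% over all genes), with 3 higher and 6 lower and a median of -0.01. Beside TRIM22, the rising ones were STAT2 (0.81) and IRF9 (0.86), named after their values were seen, while USP18 (-1.53), XAF1 (-0.48) and the RNA-activated kinase EIF2AK2 (-0.47) fell. Some members were scarce, such as IFIT1 and OAS2 (0.58 and 0.44 CPM on average in sh-Control). Calls were rarer at such levels: of 3178 genes in the lowest quartile of level, 723 rose and 293 fell. The interferon list's median with shDDX41 #2 against sh-Control was 0.36. In the direct contrast 13 members were lower and 3 higher with shDDX41 #1. Of 32 NF-kB and inflammatory genes 10 fell (31.25%, against 24.1% over all genes) and 4 rose (12.5%, against 23.7%). BIRC2 changed by -0.86, TNFAIP3 by -0.77 and CCL5 by -0.59, against ICAM1 at 0.89.

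Immediate early genes, the first transcripts switched on by growth signals, had a median of 0.19. Of 35, 12 rose (34.3%, against 23.7% over all genes) and 3 fell (8.57%, against 24.1%). FOS was 39.3, 37.2 and 36.3 CPM in sh-Control, 88.8, 84.2 and 79.4 CPM with shDDX41 #1 and 44.4 to 54.4 CPM with shDDX41 #2. KLF4, a zinc finger factor of monocytes, was 15.2, 10.3 and 11.95 CPM and then 34.6, 29.5 and 22.9 CPM, and the phosphatase DUSP2 rose by 0.88. JUN did not pass, at -0.44 (adjusted p = 0.141). In the direct contrast 21 members were higher and 4 lower than with shDDX41 #2. Without library A of sh-Control, 22 rose. Without the 4 members that hold GAACTAT, 11 rose and 1 fell. Among RAS and MAPK output genes 8 of 27 rose (29.6%, against 23.7% over all genes) and 6 fell (22.2%, against 24.1%). CISH, a STAT5-induced inhibitor of cytokine signaling, rose from 43.4, 40.2 and 39.2 CPM to 105, 97.9 and 86.8 CPM. RASGRP4 rose by 0.98, while the ETS factor ETV4 fell by 1.10.

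Myeloid regulators moved in both directions. Of 27 myeloid transcription factors 9 rose (33.3%, against 23.7% over all genes) and 4 fell (14.8%, against 24.1%). With upper quartile scaling 14 rose. IRF8, which drives monocyte and dendritic cell fates, was 391.6, 403 and 439 CPM in sh-Control and 738, 761 and 776 CPM with shDDX41 #1, and the repressor BCL6 rose by 1.00. CBFB, the partner of RUNX proteins, fell from 114, 117 and 125 CPM to 58.8, 55.9 and 62.5 CPM, and was 115 to 120 CPM with shDDX41 #2. GATA2, a stem cell and mast cell factor named after its values were seen, was 61.2, 44.3 and 49.9 CPM and then 17.9, 19.5 and 17.7 CPM.

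Of 24 genes of the HOXA and MYB leukemia program 9 rose (37.5%, against 23.7% over all genes) and 2 fell (8.33%, against 24.1%). HOXA5 rose by 0.88 and MYB by 0.43, against the RNA-binding protein MSI2 at -0.31. Cytokine receptors rose in 11 of 30 cases (36.7%, against 23.7% over all genes) and fell in 4 (13.3%, against 24.1%). The interleukin 17 receptor IL17RA (0.74), the death receptor TNFRSF10B (0.58) and IL6R (0.35) rose, and IL1RAP fell by 0.63. CSF1R, the macrophage colony-stimulating factor receptor, also chosen after its values were seen, fell by 0.86.

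Maturation genes showed no single direction. Of 26 monocyte and macrophage genes 6 rose and 6 fell (23.1% each, against 23.7% and 24.1% over all genes). MPEG1 and the signaling adaptor TYROBP (0.65) were higher and the Fc receptor FCGR1A lower (-0.71). Of 14 primary granule genes 7 fell, among them RNASE2 (-0.53), BPI (-0.60) and CST7 (-0.53), and 4 rose, CFD by 0.56. BPI was higher with shDDX41 #2 (92.2 CPM on average) than in sh-Control (41.3 CPM), the opposite side from shDDX41 #1 (27.3 CPM). In the eicosanoid list 9 of 30 rose, with GGT5, the phospholipase PLA2G15 (0.70) and the epoxide hydrolase EPHX2 (1.00), and 6 fell. ALOX12, a lipoxygenase, was 54.4, 53.4 and 52.3 CPM in sh-Control, 22.9, 21.7 and 15.8 CPM with shDDX41 #1 and lower still with shDDX41 #2, at 8.21 to 9.09 CPM. Of 31 adhesion genes 8 fell (25.8%, against 24.1% over all genes) and 7 rose, ITGA6 by 1.40. ITGA4 (-0.50), PLAUR (-0.53) and PECAM1 (-0.40) were among those that fell.

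Glycolysis and hypoxia genes fell broadly, with 28 of 38 lower (73.7%, against 24.1% over all genes), 3 higher and a median of -0.46. Besides LDHA, the pyruvate kinase PKM, the glucose carriers SLC2A1 and SLC2A3 and the lactate carrier SLC16A3 were among those that fell. Of the hexokinases, HK1 fell from 34.7 to 22.5 CPM and HK3 from 1.76 to 0.86 CPM on average. HK2, at 124 CPM on average in sh-Control, did not pass, at -0.07. PDK1, a kinase that inhibits pyruvate dehydrogenase, fell by 1.06 and NDRG1, a hypoxia-induced gene, by 0.99. PFKFB2, which raises fructose 2,6-bisphosphate, rose by 1.53 from 1.26 CPM on average. The median with shDDX41 #2 against sh-Control was -0.32. Against shDDX41 #2, 11 members were higher and 11 lower. By contrast, nuclear-encoded respiratory chain genes had a median of 0.00. Of 77, 19 were lower (24.7%, against 24.1% over all genes) and 4 higher (5.19%, against 23.7%). With upper quartile scaling 12 were lower, and without single libraries 13 to 26, the highest without library D of shDDX41 #1. CYC1 (-0.36), CYCS (-0.44) and SDHD (-0.56) fell while COX7C rose (0.63).

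Genes of amino acid supply and one-carbon metabolism fell in 21 of 35 cases, with 1 higher and a median of -0.37. They include targets of ATF4, the factor that answers amino acid shortage. ALDH1L2, a mitochondrial folate enzyme, was 71.8, 81.1 and 64.6 CPM in sh-Control and 27.4, 28.0 and 22.2 CPM with shDDX41 #1. MTHFD1L, which makes formate, was 143, 140 and 141 CPM and then 65.4, 67.9 and 70.6 CPM, and PHGDH, the first enzyme of serine synthesis, 125, 126 and 122 CPM and then 66.5, 72.4 and 70.9 CPM. None of the groups overlapped. The list's median with shDDX41 #2 against sh-Control was -0.26, and in the direct contrast 11 members were higher and 12 lower than with shDDX41 #2. ATF4 itself did not pass, at 0.14 (adjusted p = 0.102), nor did DDIT3 at 0.29 and SHMT2 at 0.04. The lipoprotein receptor VLDLR rose by 0.29, a call lost without library A of sh-Control (adjusted p = 0.108) or library A of shDDX41 #1 (adjusted p = 0.0986).

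Aminoacyl-tRNA synthetases, which charge tRNAs for translation, fell in 12 of 23 cases and rose in 4. GARS, LARS and MARS fell by 0.61, 0.62 and 0.63 on the log2 scale. KARS rose by 0.27, as did QARS, SARS and RARS, by up to 0.30. Promoters, from 250 bases before to 50 after the RefSeq start (GRCh38.p14), were searched on both strands for TGATGNAA, the core of the element that ATF4 binds together with C/EBP proteins. Of 9716 tested genes with a promoter sequence, 153 held it (1.57%), with a median log2 fold change of -0.05 against 0.00 for the rest.

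It was in 6 of 17 synthetase promoters and 6 of 29 of the amino acid list. Only these 17 of the 23 tested synthetases, and 29 of the 35 amino acid genes, had a promoter sequence to search. All 6 of those synthetases, AARS, CARS, IARS, MARS, NARS and TARS, fell, with a median of -0.40, while the other 11 searched had a median of 0.14. Synthetases without a promoter sequence are in neither median, and all of them lay below 0.14. The contrast of -0.40 with 0.14 therefore depends on which promoters could be searched. Over all 23 tested synthetases the median was -0.28. In the amino acid list ASNS, CHAC1, MTHFD1L and SLC38A1 fell, SLC7A1 (-0.22) and SLC3A2 (0.03) did not pass, and the medians with and without the letters were -0.55 and -0.27. A match is a description and not a binding site. The stretches around it, with the match in capitals as it reads on the gene's own strand, are shown for 4 genes at chr12:57488057-57488078 on the plus strand (MARS), chr18:57621808-57621829 on the minus strand (NARS), chr6:150866350-150866371 on the plus strand (MTHFD1L) and chr7:97872462-97872483 on the minus strand (ASNS).
MARS: gttccggTTGCATCAgcgaggg
NARS: cgctctcTGATGCAAcgccgga
MTHFD1L: ccggctcTGATGCAAtcgcgcc
ASNS: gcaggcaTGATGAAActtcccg

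**Figure D4:**
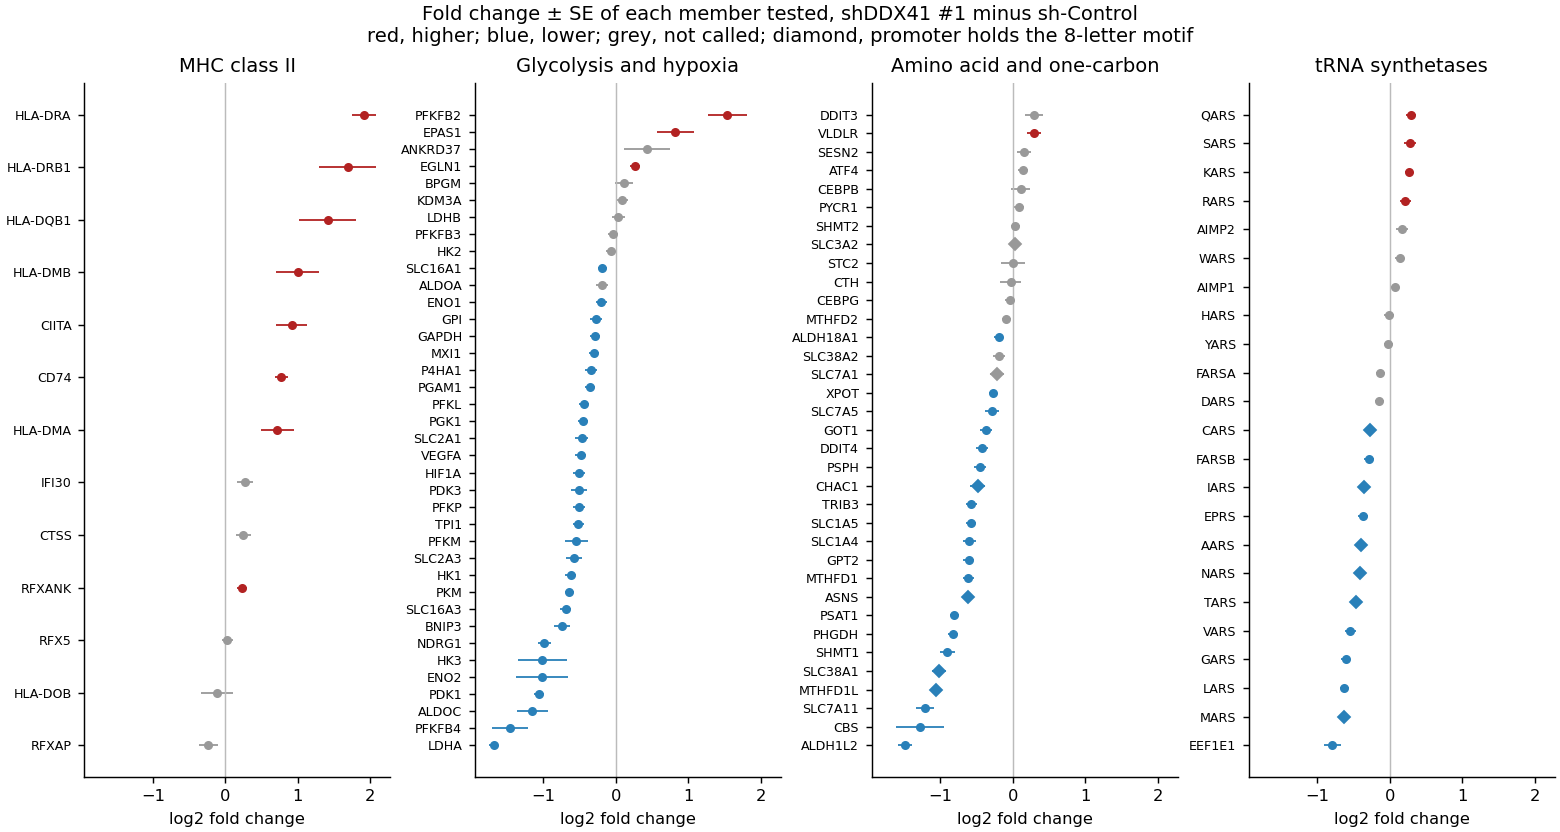
Points give the log2 fold change (x axis) with its SE for each tested member of 4 lists, red where higher, blue where lower and grey where not called, with diamonds for promoters that hold TGATGNAA among the amino acid and synthetase genes. Of 13 MHC class II members 8 are red and 0 blue, of 38 glycolysis and hypoxia members 28 are blue, and the 6 synthetase diamonds are all blue. Of 23 synthetases, 17 had a promoter sequence to search.

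Nuclear pore and transport genes fell in 40 of 60 cases (66.7%) and rose in 0, with a median of -0.28. KPNA2, an importin alpha, was 333, 359 and 370 CPM in sh-Control and 175, 184 and 164 CPM with shDDX41 #1, and NUP54, of the central channel, 76.9, 88.9 and 87.8 CPM and then 41.6, 41.6 and 40.2 CPM. NUPL1, another channel nucleoporin, fell by 0.92 and was as low with shDDX41 #2 (77.0 CPM on average, against 78.8 CPM). In the direct contrast 24 members were lower and 6 higher than with shDDX41 #2. Cell cycle genes, whose list was set apart here, fell in 188 of 195 cases with a median of -0.81. How far the nuclear pore falls go with them was not tested. The same holds for falls in the lists below, among them DNMT1, EZH2, UHRF1 and BIRC5.

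Lysosomal genes rose in 22 of 60 cases (36.7%) and fell in 6, with a median of 0.15, and 34 rose with upper quartile scaling. Their median with shDDX41 #2 against sh-Control was 0.19. The acid hydrolases MAN2B1 and GAA rose by 0.50 and 0.42 and the proton pump subunit ATP6V0A1 by 0.63, while ATP6V1C1, another pump subunit that holds GAACTAT, fell by 0.36. Among autophagy genes 11 of 40 rose (27.5%, against 23.7% over all genes) and 7 fell. NBR1, AMBRA1 and UVRAG rose by 0.45, 0.47 and 0.30, and RB1CC1, which also holds the word, fell by 0.70. Antioxidant genes fell in 12 of 37 cases (32.4%, against 24.1% over all genes) and rose in 4 (10.8%, against 23.7%). The cystine carrier SLC7A11 (-1.21), the glutathione synthesis subunit GCLM (-0.69) and SOD2 (-0.46) each hold the word, GCLM with 3 copies. GPX1 rose by 0.37, a call lost without library B of sh-Control (adjusted p = 0.0534).

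Chromatin modifiers fell in 34 of 104 cases (32.7%, against 24.1% over all genes) and rose in 16 (15.4%, against 23.7%). DNMT1, the maintenance DNA methyltransferase, was 422, 438 and 362 CPM in sh-Control and 192, 207 and 156 CPM with shDDX41 #1, and EZH2, the polycomb methyltransferase, was 93.4, 102.1 and 96.1 CPM and then 56.5, 58.8 and 48.9 CPM. Both were at the control level with shDDX41 #2 (400 and 96.7 CPM on average). UHRF1, which recruits DNMT1, fell by 0.73, and the deacetylase HDAC9 rose by 1.05.

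Apoptosis regulators fell in 11 of 34 cases (32.4%, against 24.1% over all genes) and rose in 9 (26.5%, against 23.7%). The inhibitors BIRC2, BIRC5 and XIAP fell by 0.86, 0.64 and 0.59, and the pore-forming BAX rose by 0.46. BIRC2 and XIAP hold GAACTAT. Actin cytoskeleton genes fell in 24 of 71 cases (33.8%, against 24.1% over all genes) and rose in 10 (14.1%, against 23.7%). TPM4, a tropomyosin, fell by 0.87, the membrane linker EZR by 0.61 and CORO1C by 0.59, while the ARP2/3 subunit ARPC3 rose by 0.61, and 37 members were lower than with shDDX41 #2. In the Wnt, Notch and TGF-beta list 10 of 43 fell (23.3%, against 24.1% over all genes) and 8 rose (18.6%, against 23.7%). TGFB1 (-0.75), SMAD2 (-0.41) and RBPJ (-0.36) were among those that fell, and the Notch ligand JAG1 (1.04) among those that rose. Without the 7 members that hold GAACTAT, 6 fell and 7 rose.

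Spliceosome and helicase genes moved in both directions. Of 75 spliceosome proteins 14 rose and 13 fell (36.0% called, against 47.8% over all genes, a difference that was not tested), with SYF2 (0.72), DDX23 (0.40) and PRPF3 (0.35) higher and SNRNP70 lower (-0.37). Of 51 DEAD-box and DEAH-box helicases 14 fell, DDX41 included (27.5%, against 24.1% over all genes). Another 6 rose (11.8%, against 23.7%), and 39.2% were called. DDX11, a DNA helicase of sister chromatid cohesion, fell by 1.39 and DHX40 by 0.91. Without library B of sh-Control 9 fell. The PSMA, PSMB, PSMC and PSMD name stems picked 40 genes. Of these 9 fell (22.5%, against 24.1% over all genes) and 3 rose (7.5%, against 23.7%). The strongest call in each direction, PSMC3IP (-1.43) and the antisense RNA PSMD5-AS1 (0.82), are not proteasome subunits. The subunits PSMD1 and PSMD11 fell by 0.43 and 0.51, and without library D of shDDX41 #1 18 of the list fell.

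**Figure D5:**
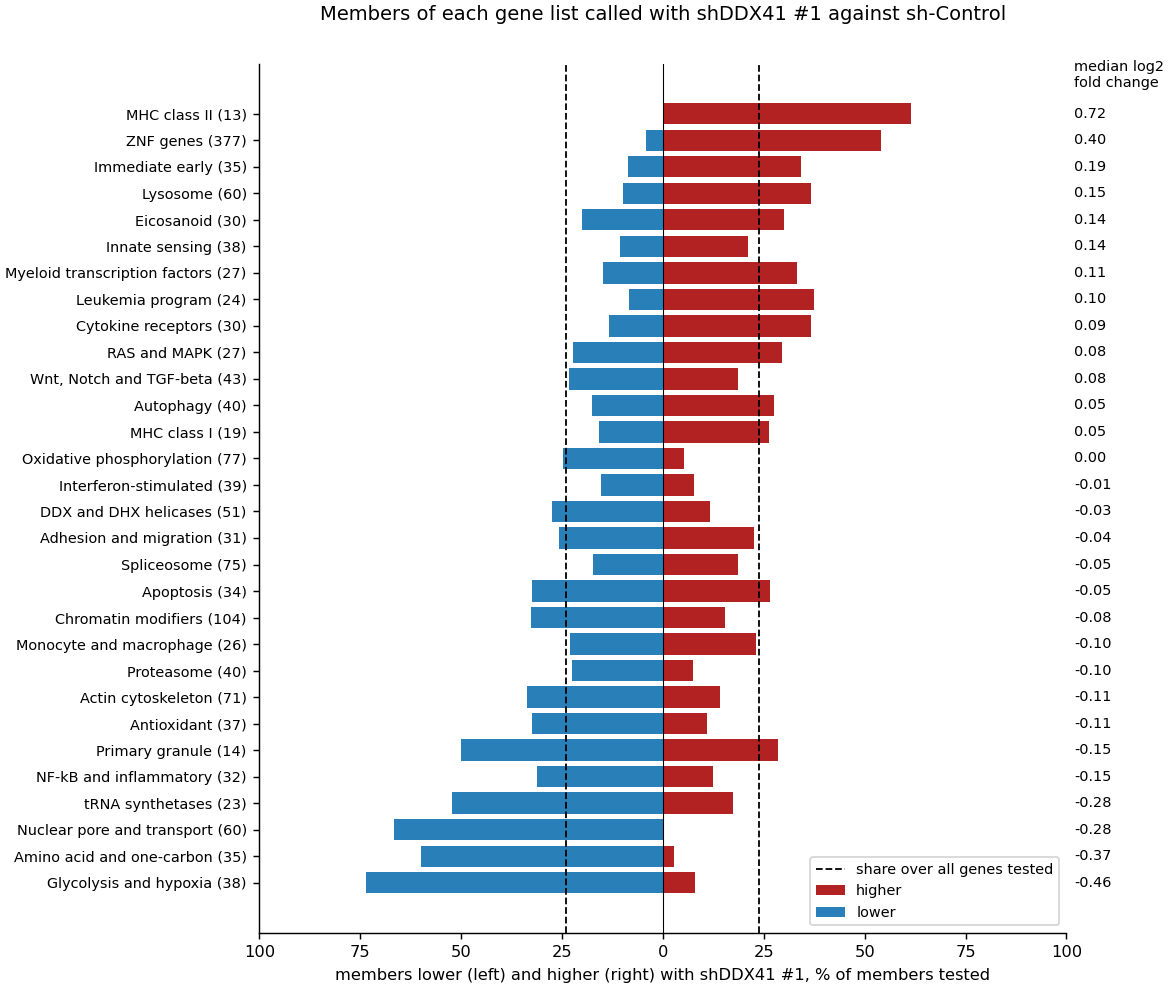
Bars give the share of tested members of each of 30 lists that were lower (blue, left) or higher (red, right) with shDDX41 #1 against sh-Control, in %, with the number tested in parentheses and the median log2 fold change at the right. Dashed lines mark the shares over all genes, 24.1% lower and 23.7% higher. The MHC class II and ZNF lists pass the right line furthest (61.5% and 54.1%). The glycolysis and hypoxia, amino acid and nuclear pore lists pass the left furthest (28 of 38, 21 of 35 and 40 of 60 lower). Other lists pass each line by less.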

How the data were processed

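RNA-seq of sorted MOLM13 cells was analysed from the deposited table of whole-number counts per gene, 1 column per library, not normalized by the authors. Per the labels, poly(A) mRNA libraries were made with a strand-keeping kit. The study's methods name a kit without that property, so overlapping and antisense genes are uncertain. The submitters' processing notes list FastQC 0.11.7, HISAT2 2.0.5 and featureCounts 1.5.2 and the builds hg38 and mm10. How multi-mapped reads were counted is not given in the sources used here.

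Genes were kept with filterByExpr (minimum count 10), scaled by TMM and fitted in edgeR 4.0.16 (R 4.3.3) by quasi-likelihood over all 9 libraries, with 1 coefficient per group. Tests were two-sided with Benjamini-Hochberg adjustment and a threshold of 0.05. Of the table's 30017 rows 12712 were tested. The totals of 16385238 to 20510032 counts per library limit precision most for genes at a few CPM. The fitting code was tested on simulated data. Named genes were DDX41, the 12 largest rises and 12 largest falls over 20 CPM whose groups did not overlap, the 5 largest rises from under 2 CPM to at least 5 CPM and the mirror falls, up to 3 called members per list in the majority direction and 1 in the other by adjusted p, and the marker genes. Every other gene named with a value was chosen after its values were seen, among them CIITA, STAT2, IRF9, GATA2, CSF1R, JUN, ATF4, DDIT3, SHMT2, the carriers and kinases of glycolysis, further synthetases, and the genes with a promoter match. The gene lists, written from general knowledge, and the members were chosen with earlier results of these data known. Zinc finger and helicase lists leave out pseudogene and antisense symbols. Mitochondrially encoded genes were not analysed here. Old symbols were matched through RefSeq synonyms, and 95.8% of tested genes had a RefSeq entry. For each gene, 1 GENCODE v29 coding transcript, the principal one with the longest 3′ UTR, was searched. Alternatives were other scalings, no filter, DESeq2 1.42.0, the 6 libraries alone, a replicate block, and leaving out each library. Leaving out genes with the 3′ UTR word was chosen after seeing the data. Some genes that the naming rule selects are not reported here.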

Additional observations from a re-analysis of the deposited data

How the results depend on the processing

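DDX41 kept its direction and call under every alternative run, and the number of genes called stayed within 1.5 times. Upper quartile scaling changed the balance of the calls, from 49.5% higher to 61.1% higher. DDX41 lay between -3.37 and -3.18 on the log2 scale when each library was left out, and the number of genes called between 5368 and 6256 of all tested. The DESeq2 Wald test called 5907 genes, no filter 6221 and the 6 libraries alone 5404. Of 140 named genes other than DDX41, 138 kept their call under all alternatives, and 2, VLDLR and GPX1, lost it without 1 library.

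Upper quartile scaling raised the myeloid transcription factors higher to 14 and lysosomal genes higher to 34, and lowered the respiratory chain genes lower to 12 and helicases lower to 8. The 6 libraries alone gave 9 helicases lower. Leaving out genes with GAACTAT, chosen after seeing the data, left 6 Wnt, Notch and TGF-beta genes lower. With each library left out in turn, MHC class II genes higher ran from 5 to 10, immediate early genes higher from 9 to 22, helicases lower from 9 to 14, antioxidant genes lower from 8 to 17, respiratory chain genes lower from 13 to 26, and proteasome genes lower from 8 to 18. The cause of these shifts was not tested.

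With the replicate letter as a block, 6351 genes were called. The letters were not taken as pairs, since same-letter deviations correlated at 0.07, 0.16 and 0.24, although every shDDX41 #1 library correlated best with its own letter. The block changed no call of a named gene. Genes at a few CPM, such as the HLA genes, have few counts, so small differences in them were not detectable at this depth.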
